A study of Canis lupus familiaris with 12 samples.

Results

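The exocyst is a protein complex that tethers secretory vesicles to the plasma membrane before they fuse with it. Its subunits form a pair of modules, one of EXOC1, EXOC2, EXOC3 and EXOC4 and the other of EXOC5, EXOC6 or its paralogue EXOC6B, EXOC7 and EXOC8, and the small GTPases of the Ral and Rab families recruit and activate it. In kidney epithelium the complex is known for delivering membrane proteins to the lateral and apical surface, for opening the lumen of a cyst and for building the primary cilium. EXOC5 in particular has been manipulated in Madin-Darby canine kidney (MDCK) cells, where it is known to affect cyst formation and ciliogenesis. The genes described here are the 9 subunit genes, chosen by name, and their members are all probe sets of the array (short groups of oligonucleotides that together measure 1 transcript) whose annotation names exactly 1 of these genes. That gave 17 probe sets of 8 genes, among 42924 probe sets and 15115 genes measured. EXOC7 was named by no such probe set and is not analysed here.

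The study set cysts that MDCK II tet-off cells, an established dog kidney tubule line, form when grown in 3D in type I collagen (6 arrays) against flat sheets of the same line from 2D growth with this collagen (2D, 6 arrays, the control condition). Medium for both contained serum and G418, and all cultures lasted until day 8 and were freed from their gels with collagenase. Each array received pooled RNA of 4 samples, so p-values measure the spread between pools and not between single cultures. Values are log2(intensity + 1) of the authors' GCRMA intensities, called the log2 level below, and a fold change is the mean log2 level in 3D minus that in 2D. Its error is the standard error (SE) of limma's fit. A gene or probe set passed at an adjusted p under 0.05. Levels are comparable between arrays for 1 probe set but not between probe sets, so the subunits are not ranked by level. In RNA of whole cultures, a change in the share of cells that use a gene and a change in RNA per cell cannot be told apart.

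Facts of the arrays that touch these genes were as follows. All 7 measured markers of kidney epithelium, among them KRT8, EPCAM and CDH16, lay above the level of control probe sets that match no dog gene on every array. Their summed intensity, on the log2 scale, was 14.93 to 15.01 on 3D arrays and 14.67 to 14.86 on 2D arrays. Of the other cell types' markers, COL1A2 (fibroblast) and PECAM1 (endothelium) lay at or below that control level on every array. The same sum for 6 fibroblast markers, of which 2 lay above the control level on every array, was 8.37 to 8.53 on 3D arrays and 8.47 to 8.71 on 2D arrays. For 5 leukocyte markers, all 5 above it, the sum was 8.89 to 9.09 on 3D arrays and 8.95 to 9.09 on 2D arrays. For 4 endothelium markers, 3 of them above it, the sum was 8.25 to 8.41 on 3D arrays and 8.39 to 8.55 on 2D arrays. Their part in the results was not tested. On the second principal component, which held 9.49% of the variance, 3D replicate 2 and 2D replicate 6 lay farthest out, on the same side. The RNA control ratio, the log2 ratio of 5-prime to 3-prime signal averaged over 4 pairs of actin and GAPDH controls, reflects how intact the RNA was. It averaged -0.54 over 3D arrays (SD 0.17) and -0.91 over 2D arrays (SD 0.14; two-sided exact permutation p = 0.00866, n = 6 each). In 3D replicate 2 it was -0.88, within the 2D range of -1.09 to -0.75, while the highest value in 3D was -0.40.

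The exocyst genes showed changes of modest size in both directions. EXOC6B and EXOC5 rose in 3D, EXOC6 and EXOC8 fell, and EXOC1, EXOC2, EXOC3 and EXOC4 did not pass, each gene being read from its brightest probe set. The largest change was the rise of EXOC6B, by 57.3%. Of the 8 genes, 2 rose and 2 fell, where 42.7% of all genes passed, 19.8% by rising and 22.9% by falling. Of the 17 probe sets, 3 rose and 2 fell, where 38.7% of all probe sets passed, 16.7% by rising and 22.0% by falling. The share of genes that passed is near that of all genes. The median fold change of the 8 genes was -0.06 on the log2 scale and that of all genes -0.05, and the median size without sign was 0.14 for both. The arrays of 3D all lay above those of 2D for 1 of the 17 probe sets, that of EXOC6B, and all lay below for 0. Among all probe sets 18.7% had groups that did not overlap, 10.1% with 3D above and 8.62% with 3D below, and among all genes 22.6% had such groups.

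**Figure D1:**
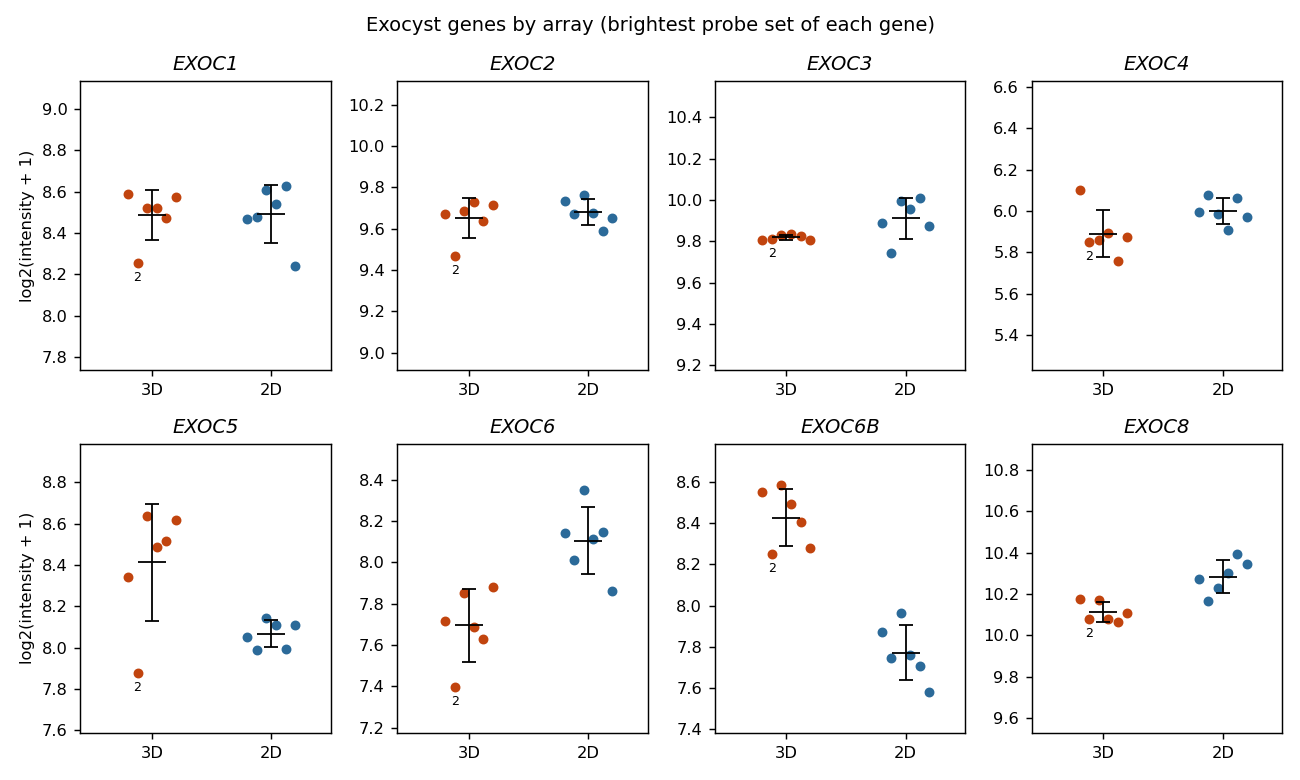
Log2 level, log2(intensity + 1), of the brightest probe set of each measured exocyst gene on 6 arrays of 3D (left) and 6 of 2D (right) culture; each point is an array, bars are the mean ± SD, every panel spans the same height, and the digit marks 3D replicate 2. Only EXOC6B has groups that do not overlap, and 3D replicate 2 is the lowest 3D array for EXOC1, EXOC2, EXOC5, EXOC6 and EXOC6B.

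The subunits were measured with unequal quality. Of the 17 probe sets, 12 lay above the control level, the 95th percentile of 59 control probe sets on the same array (5.59 to 5.91), on all 12 arrays, and 2 lay at or below it on every array. Those 2 were the dimmest EXOC3 and the dimmer EXOC4 probe set, with fold changes of -0.01 (SE 0.06) and 0.04 (SE 0.07) on the log2 scale. EXOC6B and EXOC8 had 1 probe set each and the other 6 genes several. Names ending in _s_at or _x_at, which can hybridise with related transcripts, were borne by 10 of the 17, including the only probe set of EXOC6B and the brightest ones of EXOC1, EXOC2, EXOC5 and EXOC6.

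**Figure D2:**
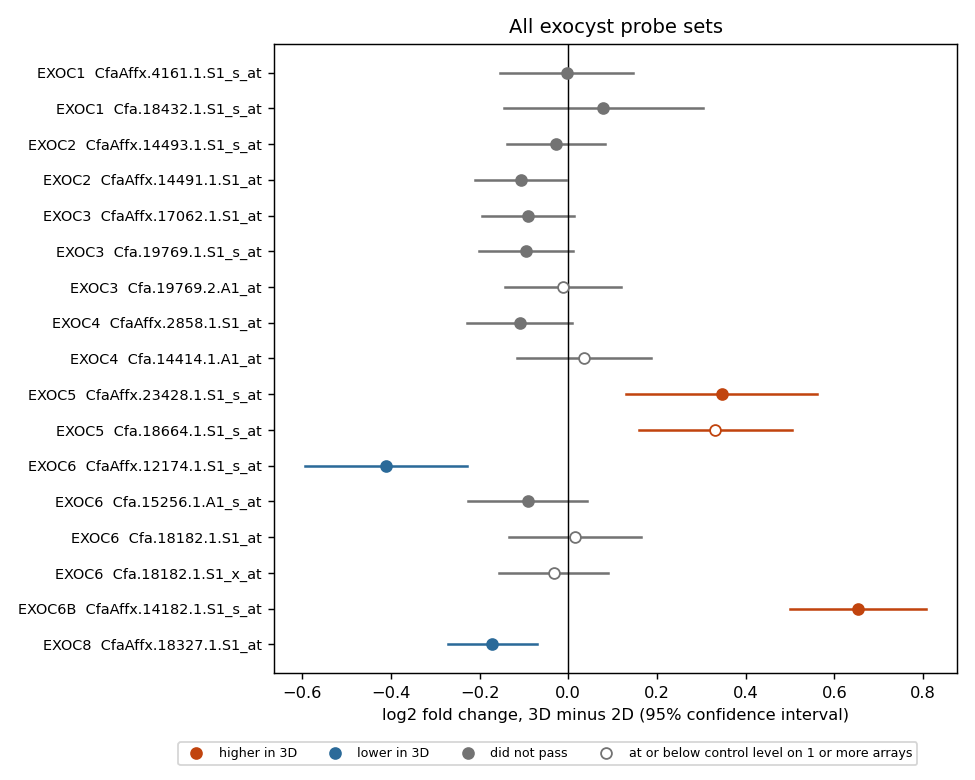
Fold change, 3D minus 2D, on the log2 scale for all 17 exocyst probe sets, with 95% confidence intervals of limma's fit (n = 6 arrays each); filled points lay above the control level on every array, open points did not. The interval of EXOC6B lies farthest above 0 and that of the brightest EXOC6 probe set farthest below, and those of the 3 dimmer EXOC6 probe sets include 0.

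In the module of EXOC1 to EXOC4, 0 of 4 genes passed, where 42.7% of all genes did (limma, with 0 also at an unadjusted p under 0.05 for these 4 brightest probe sets). EXOC1, the Sec3 subunit that binds phosphoinositides of the plasma membrane, had a lowest, median and highest log2 level of 8.26, 8.52 and 8.59 in 3D and of 8.24, 8.51 and 8.63 in 2D. The groups covered almost the same range, and the fold change was -0.004 (95% interval -0.15 to 0.15, limma adjusted p = 0.970). The dimmer EXOC1 probe set spread more widely, at 7.41, 7.74 and 7.96 in 3D and 7.32, 7.58 and 7.87 in 2D, and had a fold change of 0.08 (SE 0.11, limma adjusted p = 0.569). With the RNA control ratio as a covariate that probe set fell by 0.34 (limma adjusted p = 0.0416).

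EXOC2, the Sec5 subunit and an effector of the Ral GTPases, had log2 levels of 9.47, 9.68 and 9.73 in 3D and of 9.59, 9.67 and 9.76 in 2D, given as lowest, median and highest. The medians lay closer together than the arrays of either group, with a fold change of -0.03 (95% interval -0.14 to 0.08, limma adjusted p = 0.693). Its lowest 3D value was that of replicate 2. The dimmer EXOC2 probe set had 9.16, 9.24 and 9.29 in 3D and 9.23, 9.33 and 9.48 in 2D, with 3 of the 3D arrays below all 2D arrays. Its fold change of -0.11 (SE 0.05) did not pass (limma adjusted p = 0.0898), but it passed with quantile normalization (-0.19, limma adjusted p = 0.00278) and without 2D replicate 1 (-0.13, limma adjusted p = 0.0461). The brighter probe set passed with the RNA control ratio as a covariate (-0.20, limma adjusted p = 0.0478).

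EXOC3, the Sec6 subunit, which binds SNARE proteins of the fusion machinery in yeast, was measured by a pair of bright probe sets that agreed in size. The brightest had log2 levels of 9.81, 9.82 and 9.84 in 3D and 9.74, 9.92 and 10.01 in 2D. The 3D arrays were nearly identical, with an SD of 0.01 against 0.10 in 2D, and lay inside the 2D range. Its fold change was -0.09 (95% interval -0.19 to 0.01, limma adjusted p = 0.150), and the second brightest, with medians of 9.05 in 3D and 9.17 in 2D, gave -0.09 (SE 0.05, limma adjusted p = 0.140). With quantile normalization both passed, at -0.16 and -0.19 (limma adjusted p = 0.00790 and 0.00864), and the first passed without 2D replicate 2 (-0.12, limma adjusted p = 0.0397).

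EXOC4, the Sec8 subunit, known to gather with EXOC3 near the cell junctions of MDCK cells, lay just above the control level. Its brighter probe set had log2 levels of 5.76, 5.87 and 6.10 in 3D and 5.91, 5.99 and 6.08 in 2D. In 3D 5 of 6 arrays lay below all 2D arrays, and the remaining one, replicate 1, lay above them all. The fold change was -0.11 (95% interval -0.23 to 0.01, limma adjusted p = 0.131), and without 3D replicate 1 it was -0.15 (limma adjusted p = 0.0267).

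In the other module 4 of 4 measured genes passed, with 2 in each direction. Over both modules 50% of the 8 genes passed, near the 42.7% of all genes. The difference in calls between the modules was not tested, and it was narrower with quantile normalization, where EXOC3 fell as well. With the RNA control ratio as a covariate EXOC5 and EXOC8 did not pass and EXOC2 did, as given beside each gene, so that 1 of 4 genes passed in the first module and 2 of 4 in the other. Of all probe sets 18.5% passed with that covariate, against 38.7% without it.

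EXOC5, the Sec10 subunit that joins EXOC6 to the rest of the complex in yeast, was higher in 3D with both of its probe sets. The brighter one had log2 levels of 7.88, 8.50 and 8.64 in 3D and 7.99, 8.08 and 8.14 in 2D. In 3D 5 of 6 arrays lay above all 2D arrays, whereas replicate 2 lay below them all. The fold change was 0.35 (SE 0.10, 95% interval 0.13 to 0.56, limma adjusted p = 0.0137), an increase of 27.1%. Without 3D replicate 2 it was 0.45 (limma adjusted p = 1.52e-05). The dimmer probe set had 5.87, 6.20 and 6.24 in 3D and 5.62, 5.77 and 6.01 in 2D, with 4 of 6 3D arrays above all 2D arrays. Its fold change was 0.33 (SE 0.08, limma adjusted p = 0.00448), and it lay at or below the control level on 3 of the 12 arrays.

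The calls of EXOC5 were also examined with the RNA control ratio in the fit. The 3D array with the lowest ratio, replicate 2, had the lowest EXOC5 level of its group on both probe sets. With the ratio as a covariate neither probe set passed, at -0.007 (SE 0.12, limma adjusted p = 0.978) for the brighter and 0.08 (SE 0.11, limma adjusted p = 0.675) for the dimmer one. The ratio and culture moved together, and 18.5% of all probe sets passed with the covariate, against 38.7% without it.

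**Figure D3:**
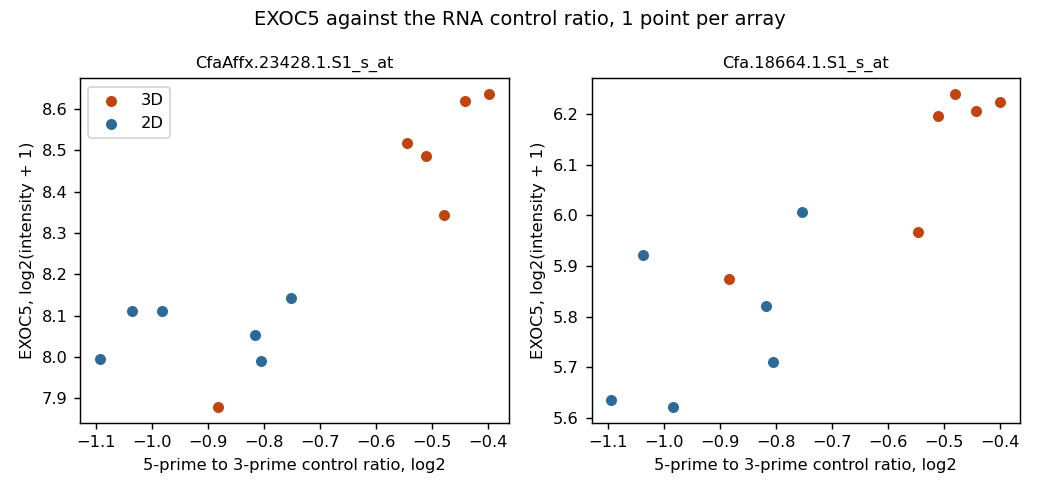
Log2 level, log2(intensity + 1), of both EXOC5 probe sets against the mean log2 ratio of 5-prime to 3-prime control signal, 1 point per array, 6 arrays of 3D and 6 of 2D. The 5 arrays of 3D with ratios above all 2D ratios have, for the brighter probe set, levels above all 2D arrays, and 3D replicate 2, whose ratio of -0.88 is within the 2D range, has a level below all 2D arrays there. For the dimmer probe set 3D replicate 2, at 5.87, is within the 2D levels of 5.62 to 6.01. A relation of level and ratio within either group was not tested.

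EXOC6 and EXOC6B encode alternative forms of Sec15, the subunit that binds RAB11 on recycling vesicles, and their brightest probe sets moved in opposite directions. EXOC6B had log2 levels of 8.25, 8.45 and 8.59 in 3D and 7.58, 7.75 and 7.96 in 2D. All 6 arrays of 3D lay above all 6 of 2D. The fold change was 0.65 (SE 0.07, 95% interval 0.50 to 0.81, limma adjusted p = 2.91e-06), an increase of 57.3% with a 95% interval of 41.4% to 75.0%. It was 0.44 with the RNA control ratio as a covariate (limma adjusted p = 0.00454).

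EXOC6, read from its brightest probe set, had log2 levels of 7.40, 7.70 and 7.88 in 3D and 7.86, 8.13 and 8.35 in 2D. In 3D 5 of 6 arrays lay below all 2D arrays, and the other, replicate 6, lay just above the lowest 2D array, replicate 6 as well. The fold change was -0.41 (SE 0.09, 95% interval -0.59 to -0.23, limma adjusted p = 0.00146), a change of -24.7%. With the RNA control ratio as a covariate it was -0.69 (limma adjusted p = 0.000350).

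The other probe sets of EXOC6 did not show this fall. The second brightest lay just above the control level on every array, as on 3D replicate 4, at 5.70 against 5.63. Its log2 levels were 5.70, 5.93 and 6.01 in 3D and 5.83, 5.96 and 6.14 in 2D. The fold change was -0.09 (95% interval -0.23 to 0.04, limma adjusted p = 0.258). Whether signal this near the control level would show the fall was not tested. The remaining pair, at or below the control level on 5 and 9 of 12 arrays, had fold changes of 0.01 and -0.03 (SE 0.07 and 0.06). The fall on the brightest probe set exceeded that on the second brightest by 0.32 on the log2 scale (two-sided exact permutation p = 0.0173, a test added after the values were seen). The mean over all 4 probe sets gave a fold change of -0.13 (SE 0.05, limma adjusted p = 0.0339), so that the size of the fall depends on the probe set.

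Whether culture changed both paralogues alike was tested within arrays. The log2 level of EXOC6 minus that of EXOC6B, each from its brightest probe set, averaged -0.73 over the 6 arrays of 3D (SD 0.17) and 0.33 over the 6 of 2D (SD 0.07). The 3D arrays ranged between -0.85 and -0.39 and the 2D arrays between 0.26 and 0.44, so that the groups lay apart. The fold change of EXOC6 minus that of EXOC6B was -1.06 on the log2 scale. Its two-sided exact permutation p was 0.00216, the smallest that 12 arrays in groups of 6 can give. With the second brightest EXOC6 probe set in place of the first, chosen after the values were seen, the difference was -0.75 (two-sided exact permutation p = 0.00216), and with the mean of the EXOC6 probe sets it was -0.78 (two-sided exact permutation p = 0.00216). The value within an array shows that the changes were unequal, and the sign of the level difference itself says nothing of which paralogue is more abundant. Because EXOC6B alone had groups that did not overlap, these p-values do not show that EXOC6 itself fell.

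**Figure D4:**
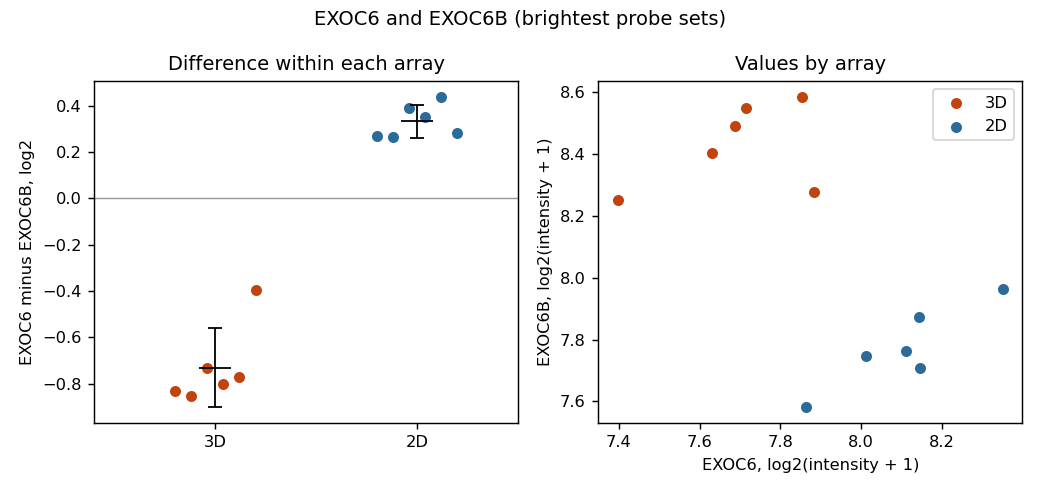
EXOC6 minus EXOC6B log2 level within each array (left, points are arrays, bars the mean ± SD, n = 6 each) and EXOC6B against EXOC6 log2 level by array (right), for the brightest probe set of each. All 6 differences of 3D are below 0, at most -0.39, and all 6 of 2D are above it, at least 0.26.

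EXOC8, the Exo84 subunit and, with EXOC2, a target of the Ral GTPases, had log2 levels of 10.06, 10.09 and 10.18 in 3D and 10.17, 10.29 and 10.39 in 2D. In 3D 4 of 6 arrays lay below all 2D arrays, and the ranges overlapped by a narrow margin. The fold change was -0.17 (SE 0.05, 95% interval -0.27 to -0.07, limma adjusted p = 0.0105), a change of -11.2%. It did not pass with the RNA control ratio as a covariate (-0.13, SE 0.08, limma adjusted p = 0.279).

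The genes whose pattern was most like that of EXOC6B, the subunit with the largest change, were IQGAP1, ATP8B1, BAG4, APOBR and MYH9. Their Pearson correlations with EXOC6B over the 12 arrays were 0.988, 0.988, 0.983, 0.982 and 0.976, the highest among 14399 genes with established symbols. All arrays of a group share their culture, and these correlations include the difference between the groups. Within the 6 arrays of 3D the correlations of these 5 genes were between 0.813 and 0.940 and within those of 2D between 0.790 and 0.902. The genes were chosen on these same arrays, which favours high values within the groups too.

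Genes that regulate or bind the exocyst were set beside its subunits. Of 30 measured genes among 35 listed, 13 rose, 6 fell and 11 did not pass, with a median fold change of 0.13 on the log2 scale, beside 19.8% and 22.9% of all genes and a median of -0.05. The list has 70 probe sets, of which 29 rose and 10 fell, beside 16.7% and 22.0% of all probe sets. Many of the 70 measure the same gene as another. The remaining genes of the list, CDC42 among them, are not analysed here. No test of the list as a whole was made.

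RALA, the Ral GTPase that binds EXOC2 and EXOC8, had the largest change of the list. Its log2 levels were 10.68, 10.87 and 11.04 in 3D and 9.12, 9.18 and 9.25 in 2D, as lowest, median and highest. The groups lay far apart, with a fold change of 1.69 (SE 0.06, limma adjusted p = 4.16e-12). Its other probe set gave 1.67. The exchange factor RALGDS, which activates Ral GTPases, had 7.18, 7.61 and 7.78 in 3D and 6.50, 6.82 and 7.04 in 2D, and it rose by 0.77 (SE 0.10, limma adjusted p = 1.27e-05). ARF6, a GTPase of endosomal recycling, had 10.63, 10.78 and 10.86 in 3D and 9.87, 10.11 and 10.35 in 2D and rose by 0.66 (SE 0.08, limma adjusted p = 4.23e-06). IQGAP1, an actin-binding scaffold, had 9.61, 9.99 and 10.21 in 3D and 8.81, 9.09 and 9.22 in 2D and rose by 0.90 (SE 0.09, limma adjusted p = 1.45e-06). For these 4 genes the groups did not overlap, and each other probe set of theirs rose as well. Each stayed past the threshold with the RNA control ratio as a covariate, at 1.60 for RALA, 0.70 for RALGDS, 0.46 for ARF6 and 0.59 for IQGAP1.

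The 6 genes of the list that fell, named in full after their values were seen, included the Ral exchange factors RALGPS1 and RGL1. The Ral exchange factor RGL2 instead rose by 0.36 (limma adjusted p = 0.00367), and RALGPS2 did not pass (limma adjusted p = 0.0532). RALGPS1 had log2 levels of 7.13, 7.32 and 7.37 in 3D and 7.49, 7.64 and 7.79 in 2D, without overlap. It fell by 0.34 (SE 0.06, limma adjusted p = 0.000355). Its second brightest probe set, above the control level on every array, gave -0.19 and did not pass (limma adjusted p = 0.0780). Its dimmer ones, at or below that level on 10 and 12 arrays, gave 0.0008 and -0.18. RGL1 fell by 0.31 (SE 0.11, limma adjusted p = 0.0358). RAB3IP, an exchange factor for RAB8, fell by 0.27, and CYTH2, an exchange factor for ARF GTPases, fell by 0.26. PIP5K1C, a kinase that makes phosphoinositides, fell by 0.19, and the recycling GTPase RAB11B fell by 0.18 (limma adjusted p = 0.0391 and 0.0135). The dimmer RAB11B probe set gave -0.08 and did not pass (limma adjusted p = 0.478). Some related GTPases of the list went the other way: RAB11A rose by 0.31, RAB8A by 0.47 and RALB by 0.62 (limma adjusted p = 1.64e-05, 0.00541 and 5.55e-06). RAB8B and RAB35 did not pass, at 0.015 and -0.013 (limma adjusted p = 0.935 and 0.897).

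Genes related to EXOC3 in sequence were tested beside it. TNFAIP2, a TNF-induced relative of EXOC3 also known as M-Sec, had log2 levels of 7.36, 7.69 and 7.85 in 3D and 6.18, 6.35 and 6.52 in 2D. It rose by 1.32 (SE 0.08, limma adjusted p = 3.13e-09), while EXOC3 itself did not pass. Its dimmer probe set lay at or below the control level on all 6 arrays of 2D, so no fold change is given for it. EXOC3L1, a paralogue of EXOC3, had 6.50, 6.62 and 6.72 in 3D and 6.04, 6.16 and 6.22 in 2D and rose by 0.48 (SE 0.05, limma adjusted p = 1.74e-06), and its dimmer probe set gave 0.33. The annotation gives these 2 probe sets different gene identifiers, and RefSeq held only that of the dimmer one, so it is uncertain that the brighter one measures EXOC3L1. EXOC3L2 had a fold change of -0.07 (SE 0.06, limma adjusted p = 0.371). EXOC3L4 and EXOC1L are not analysed here.

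Other complexes that tether vesicles, at other membranes, were set beside the exocyst. In the conserved oligomeric Golgi (COG) complex, which returns vesicles to the Golgi, 3 of 7 measured genes (42.9%) fell and the rest did not pass, beside 22.9% of all genes that fell, 19.8% that rose and 42.7% that passed either way, with a median fold change of -0.08 on the log2 scale. COG5 fell by 0.27, COG7 by 0.20 and COG8 also by 0.20 (limma adjusted p = 0.000460, 0.000953 and 0.00947). The other COG5 probe sets gave -0.06 and 0.16, the latter at or below the control level on all 12 arrays. In the GARP and EARP complexes of endosome-to-Golgi and recycling traffic, 3 of 5 genes fell and the rest did not pass, with a median of -0.18. VPS54 fell by 0.26, VPS52 by 0.25 and VPS50 by 0.18 (limma adjusted p = 0.00235, 0.00309 and 0.0116). Of 9 genes listed for the HOPS and CORVET complexes of endosomes and lysosomes, 1 rose and 5 fell, with a median of -0.15. The gene that rose was VPS33B, a paralogue of the subunit VPS33A that is usually assigned to a different complex. VPS16 fell by 0.50, although its other probe sets gave 0.003 and 0.05, VPS41 fell by 0.22, with -0.08 and 0.08 on its others, and VPS11 also by 0.22. VPS33B gave 0.20, and its 5 probe sets disagreed, between -0.32 and 0.82. With quantile normalization VPS33B did not pass (0.13, limma adjusted p = 0.155). In the NRZ complex of the endoplasmic reticulum, 1 of 3 genes rose and 1 fell, where ZW10, which also serves at kinetochores, rose by 0.46 and NBAS fell by 0.20. The range of fold changes was -0.41 to 0.65 over the exocyst genes, -0.27 to 0.02 over COG genes and -0.26 to 0.10 over GARP and EARP genes. It was -0.50 to 0.20 over the genes listed for HOPS and CORVET, with VPS33B the highest, and -0.20 to 0.46 over NRZ genes. COG2 is not analysed here. Whether the exocyst differs from these complexes was not tested. With the RNA control ratio as a covariate COG7, COG8, VPS54, VPS52, VPS50, VPS41, VPS11 and NBAS did not pass (limma adjusted p = 0.0829, 0.102, 0.312, 0.0955, 0.534, 0.198, 0.212 and 0.794). Of the genes listed for HOPS and CORVET, 2 rose and 1 fell with that covariate, where 18.5% of all probe sets passed.

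**Figure D5:**
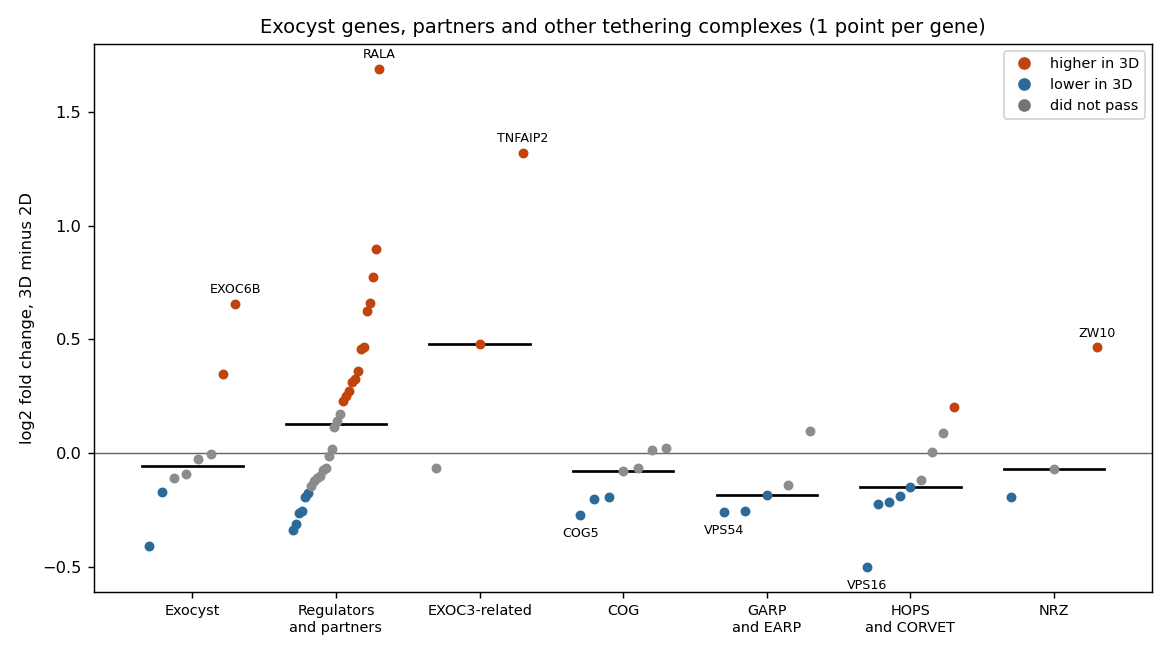
Fold change, 3D minus 2D, on the log2 scale for the measured genes of the exocyst, of its regulators and partners, of the EXOC3-related genes and of 4 groups of tethering complexes; each point is a gene read from its brightest probe set, colours give the call at an adjusted p under 0.05, and black lines are medians. RALA, at 1.69, and TNFAIP2, at 1.32, lie above every exocyst gene.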

How the data were processed

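The intensities that the authors deposited, 1 for each probe set on each array, are linear. Per the submitters' processing notes GCRMA was used; its version and settings are not given. The 111 control probe sets were left out, and log2(intensity + 1) was taken with no further normalization and no filter on dim probe sets. Genes were named from the platform annotation (29254 probe sets with 1 gene, 439 with several, 13231 with none), and RefSeq held the gene identifiers of 27680 of them (assembly UU_Cfam_GSD_1.0), with 0 symbols changed. The probe set with the highest mean over 12 arrays stood for a gene.

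Culture was the only term of a fit over all 42924 probe sets with limma 3.58.1 (lmFit and eBayes, two-sided, Benjamini-Hochberg) in R 4.3.3. The within-array difference of EXOC6 and EXOC6B and the RNA control ratio were compared with exact permutation tests over all assignments of 12 arrays to groups of 6. The fit was tested on simulated data. Python 3.11.15 with matplotlib 3.10.9 made the plots. The members, lists, tests and alternatives were chosen with earlier results of these data known. All subunits are named, and of each other list the members that passed, at most 4, by size of change. Further genes of the regulator list were named after their values were seen. Depth has no meaning for arrays, and their number limits the precision. Same-numbered arrays of both groups were checked for pairing: their deviations correlated at 0.0008 to 0.36, and 1 of 6 arrays of 3D matched its own number best, so the numbers were not taken as pairs.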

Additional observations from a re-analysis of the deposited data

Results flagged for a closer look

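On 2 of 34 sets of 6 values (17 probe sets in both groups), 1 array stood apart from the other five by a gap larger than Dixon's 95% limit for 6 values allows, which chance passes in about 1 of 20 groups. The gaps were 0.648 and 0.651 of the group's range. Both were 3D replicate 2, with an EXOC1 log2 level of 8.26 on the brightest probe set, where the other 3D arrays lay between 8.47 and 8.59, and an EXOC2 log2 level of 9.47 on the brightest probe set, where the others lay between 9.64 and 9.73. The same array was the lowest of its group for 6 of the 12 exocyst probe sets above the control level and had the lowest RNA control ratio of the 3D arrays, at -0.88. Without it the fold changes of these EXOC1 and EXOC2 probe sets were 0.04 and 0.009 (limma adjusted p = 0.606 and 0.883).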

How the results depend on the processing

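Leaving out each array in turn, 2 exocyst genes rose and 2 to 3 fell, 3 probe sets rose and 2 to 3 fell, and the EXOC6 minus EXOC6B change was -1.13 to -1.04. The replicate block changed no call of a subunit (EXOC5 0.35, limma adjusted p = 0.00585; EXOC8 -0.17, limma adjusted p = 0.0230). Neither did the filter on dim probe sets, median centring, trended and robust variance, array weights, a pseudocount of 16 or the removal of both 3D replicate 2 and 2D replicate 6, which was added later. With quantile normalization 5 probe sets fell and 3 rose, where 35.5% of all probe sets passed. With the RNA control ratio as a covariate 1 gene and 1 probe set rose, both EXOC6B, where 18.5% of all probe sets passed. At an adjusted p under 0.01, 1 gene rose and 1 fell, and EXOC5 and EXOC8 did not pass (limma adjusted p = 0.0137 and 0.0105). Among the exocyst probe sets, that of EXOC6B and the dimmer one of EXOC5 rose (limma adjusted p = 2.91e-06 and 0.00448), and 1 fell. Of all probe sets 24.1% passed at 0.01. The counts that follow leave this stricter threshold out. Of 361 fold changes under alternatives, 327 kept direction and call, 2 lost it, 7 gained it and 2 turned sign with a call on one side, both with the covariate: the dimmer EXOC1 (-0.34) and the brighter EXOC5 probe set (-0.0068). Another 23 near 0 turned sign and passed on neither side. They were EXOC1 with quantile normalization (-0.0035, dimmer probe set), with median centring (0.020) and with the mean of probe sets (0.038), EXOC2 without both arrays (0.0035), and, for probe sets near the control level, EXOC3 with quantile normalization (0.049) and centring (0.013), EXOC4 with array weights (-0.00095) and EXOC6 with quantile normalization (0.039), array weights (-0.014) and without both arrays (-0.051). Without single arrays these probe sets ranged from -0.055 to 0.043 for EXOC1, -0.046 to 0.0092 for EXOC2, -0.044 to 0.021 for EXOC3, -0.0024 to 0.084 for EXOC4 and -0.020 to 0.044 for EXOC6. The cause of these changes was not tested. Signal near the control level limits EXOC4 and the dimmer EXOC3, EXOC5 and EXOC6 probe sets.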
